A study of Mus musculus with 6 samples.

Results

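Heat shock proteins, J proteins and chaperonins were followed in whole pituitary glands of mice labelled as lacking the clock factor BMAL1 (Bmal1-/-) or as wild type. The members were taken by gene symbol: the Hspa, Hspb, Hspd, Hspe, Hsph and Hsp90 families, every Dnaj gene, the Cct subunits and Tcp1, and the co-chaperone genes Stip1, Ahsa1 and Fkbp4. The array annotation named 72 such genes among 12393 genes with a single-gene probe set, on 149 probe sets, and each gene was read from its brightest probe set. Of the 72 genes, 59 were bright enough to be tested.

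Each of the 6 Affymetrix arrays carried RNA pooled from 3 glands of male C57BL/6J mice aged 8 to 12 weeks. There were 3 pools labelled Bmal1-/- (replicates 4 to 6) and 3 labelled wild type (WT, replicates 1 to 3). Light and dark lasted 12 hours each, and all animals were killed at zeitgeber time 12, when the lights went off, so that 1 time of day was sampled. The comparison asks which transcripts of the gland change when BMAL1 is missing at that hour. Pooled glands carry the mean of 3 animals, and the number of arrays limits the precision.

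Chaperones hold unfolded proteins and help them fold. HSP70 proteins bind short stretches of an unfolded chain, J proteins bring the chain and switch on the HSP70 ATPase, and HSP110 proteins release the nucleotide. STIP1 passes clients on to HSP90, which finishes the folding of steroid receptors and kinases together with AHSA1 and FKBP4. The barrel-shaped chaperonins enclose their clients, actin and tubulin in the case of the cytosolic CCT ring, and imported proteins in the case of mitochondrial HSP60 with its lid HSP10. Many of these genes are switched on by the heat shock factor HSF1, which binds alternating GAA and TTC units in their promoters.

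Promoter windows are shown for Hsph1, Fkbp4 and Cct5, which rose and were picked because these windows hold such units. The window of Ahsa1, which also rose, and a second Cct5 window hold no match to the element. Hspa8, another gene that rose, has no window. Hspd1 also rose, and its units are shown in the window of its neighbour Hspe1, which is printed first and did not pass the test. Dnajb6, which did not pass either, is shown for comparison. They run from 250 bases before the start of the gene to 50 after it, are from RefSeq on build GRCm38.p6, and are written 5' to 3' on the strand of the gene. Capitals mark units of the heat shock element (GAANNTTC or TTCNNGAA) and the E-box CACGTG, the element that BMAL1 binds with CLOCK.

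Hspe1, chr1:55087898-55088197, plus strand: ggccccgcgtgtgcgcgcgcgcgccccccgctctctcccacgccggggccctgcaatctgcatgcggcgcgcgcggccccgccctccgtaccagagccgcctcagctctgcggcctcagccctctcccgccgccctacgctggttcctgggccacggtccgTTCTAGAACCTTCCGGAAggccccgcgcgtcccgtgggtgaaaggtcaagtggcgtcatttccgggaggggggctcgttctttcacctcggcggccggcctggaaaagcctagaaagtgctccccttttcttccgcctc

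Hsph1, chr5:149636266-149636565, minus strand: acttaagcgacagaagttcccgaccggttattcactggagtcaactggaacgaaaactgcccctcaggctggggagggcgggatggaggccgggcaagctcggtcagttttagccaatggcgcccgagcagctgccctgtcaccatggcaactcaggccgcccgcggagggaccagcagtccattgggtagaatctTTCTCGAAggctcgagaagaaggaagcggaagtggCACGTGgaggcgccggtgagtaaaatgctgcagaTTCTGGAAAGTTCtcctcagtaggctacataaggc

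Fkbp4, chr6:128438607-128438906, minus strand: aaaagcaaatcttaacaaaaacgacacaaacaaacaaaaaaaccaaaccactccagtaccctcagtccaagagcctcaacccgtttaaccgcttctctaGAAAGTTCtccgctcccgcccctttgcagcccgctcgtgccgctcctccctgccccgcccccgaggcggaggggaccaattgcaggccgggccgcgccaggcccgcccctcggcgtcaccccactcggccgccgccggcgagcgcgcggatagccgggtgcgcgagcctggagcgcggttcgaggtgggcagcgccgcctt

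Cct5, chr15:31601797-31602096, minus strand: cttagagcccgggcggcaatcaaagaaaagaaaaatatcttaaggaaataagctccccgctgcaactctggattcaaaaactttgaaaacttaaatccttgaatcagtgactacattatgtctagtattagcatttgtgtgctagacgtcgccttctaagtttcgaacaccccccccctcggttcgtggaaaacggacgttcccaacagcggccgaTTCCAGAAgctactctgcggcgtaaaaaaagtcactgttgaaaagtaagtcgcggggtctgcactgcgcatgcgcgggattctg

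Dnajb6, chr5:29735648-29735947, plus strand: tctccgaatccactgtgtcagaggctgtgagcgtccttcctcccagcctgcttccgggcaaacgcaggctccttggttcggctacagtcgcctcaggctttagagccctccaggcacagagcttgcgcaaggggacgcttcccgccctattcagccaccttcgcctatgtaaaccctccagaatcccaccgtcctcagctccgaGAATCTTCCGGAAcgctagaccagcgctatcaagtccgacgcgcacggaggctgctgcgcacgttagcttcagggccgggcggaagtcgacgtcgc

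The Hspe1 window also lies upstream of Hspd1 on chromosome 1, because these genes are transcribed away from each other. An annotated Hspd1 start lies 216 bases before the Hspe1 start on the opposite strand, and its window holds the same capital letters read on that strand. A second annotated Hspd1 start lies inside Hspe1. The run of alternating units there gives 2 overlapping matches to the 3-unit element (GAANNTTC followed at once by NNGAA, or TTCNNGAA by NNTTC), the first beginning 89 bases before the Hspe1 start. In Hsph1 a 3-unit match begins at base 16 of the gene, and an E-box begins 19 bases before the start. Fkbp4 and Cct5 hold 1 unit pair each, 151 and 34 bases before the start. Both strands were searched, and each 3-unit match contains 2-unit matches.

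RefSeq windows were found for 60 of the 72 members and for 49 of the 59 tested ones. The 3-unit element occurred in 4 of these 49 genes (Hspd1, Hspe1, Hsph1 and Dnajb6), where 0.662% of all 27025 genes with a window hold it (0.603% of all 32851 windows). A 2-unit match occurred in 16 of the 49 genes, with 17.0% of all genes (15.1% of windows). It lay in 4 of the 5 risen genes with a window and in 12 of 44 genes not past the threshold (27.3%). The difference between these groups was not tested. Among the genes not past the threshold, Hspa1a and Hspa1b hold a 2-unit match and no 3-unit match, and the Dnajb1 windows hold neither. The E-box occurred in 5 of the 49, among them Hsph1, a second Hspd1 window and Dnajb9, with 8.09% of all genes (7.15% of windows). The D-box TTATGTAA was found in 0 of the 49, with 1.11% of all genes (0.938% of windows). These are matches of letters, and no binding was measured.

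The arrays resembled each other closely, with Pearson's r over the tested probe sets of 0.98 to 0.986 for pairs of 1 genotype and 0.97 to 0.976 for pairs across genotypes. The median intensity was 31.7 to 32.2 on the arrays labelled Bmal1-/- and 33.5 to 34.3 on WT arrays. Pituitary markers were bright: growth hormone (Gh) read 15479.6 to 16756.3 on the arrays labelled Bmal1-/- and 18200.8 to 20434.1 on WT arrays. The Arntl probe set, for the gene of BMAL1 itself, read higher on the arrays labelled Bmal1-/-, at 112.1, 102.0 and 127.5, against 39.6, 51.7 and 38.6 on WT arrays. Where it lies relative to the deleted part is not known here, so it does not check the labels, and the pools are called "labelled Bmal1-/-". Both somatotroph markers fell: Gh by 0.27 on the log2 scale (limma adjusted p = 0.0217) and the receptor gene Ghrhr by 0.66 (adjusted p = 0.00553), with summed levels of 15835.3 to 17128.9 in pools labelled Bmal1-/- against 18786.4 to 21066.1 in WT pools. No marker of the other hormone cells passed. The summed corticotroph and melanotroph markers still lay apart, at 8754.6 to 9860.2 in pools labelled Bmal1-/- against 9931.2 to 11667.8 in WT pools. The sums for lactotrophs, gonadotrophs and thyrotrophs overlapped between the genotypes. Some markers of other cell types also moved with genotype. The summed pericyte markers read 463.0 to 494.2 in pools labelled Bmal1-/- against 704.3 to 848.9 in WT pools, and the macrophage markers 171.1 to 183.9 in pools labelled Bmal1-/- against 237.6 to 259.1 in WT pools. The myelin marker Mbp read 133.3 to 149.3 in pools labelled Bmal1-/- against 84.4 to 101.5 in WT pools. Of these, 1 of 2 pericyte markers and 1 of 3 macrophage markers fell, and Mbp, the single measured marker of 2 listed for myelin, rose. The posterior lobe glia markers Gfap and Rax summed to 7.0 to 14.5 in pools labelled Bmal1-/- against 18.3 to 26.4 in WT pools, at the noise floor, and the skeletal muscle markers to 9.7 to 27.9 in pools labelled Bmal1-/- against 13.0 to 23.1 in WT pools. Their part in the chaperone results was not tested. In whole glands, fewer cells of a type and less RNA per cell cannot be told apart.

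Among the chaperones, 6 genes rose on the arrays labelled Bmal1-/- and 0 fell (limma, adjusted p under 0.05 over all 13576 tested probe sets). They were the constitutive HSP70 gene Hspa8, the HSP110 gene Hsph1, the HSP90 co-chaperones Fkbp4 and Ahsa1, the CCT subunit Cct5 and the mitochondrial chaperonin Hspd1. That is 10.2% of the 59 tested members, where 3.00% of all 8033 genes tested rose, 2.66% fell and 5.66% did either. The members are brighter than most genes: the median intensity was 188.3 over all 72 members and 47.32 over all 12393 genes, tested or not. Shares among genes of like brightness were not compared. At an unadjusted p under 0.05 there were 15 members in both directions together (25.4%, with 21.5% of all genes). The median log2 fold change over the 59 members was 0.03, beside -0.0003 over all genes tested. The genotypes did not overlap upward at 12 members (20.3%, with 13.7% of all genes) and downward at 3 (5.08%, with 12.7% of all genes). The count of 6 rests on all arrays: leaving out replicate 4, 5 or 6 labelled Bmal1-/- left 2, 3 and 2 genes higher, and leaving out WT replicate 1, 2 or 3 left 3, 2 and 2. Without replicate 4 labelled Bmal1-/-, 1 member was called lower, and without WT replicate 2, 3 members were. No tested member lies on chromosome 7, which carries Arntl (chr7:113178471-113314126 on GRCm38.p6).

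**Figure D1:**
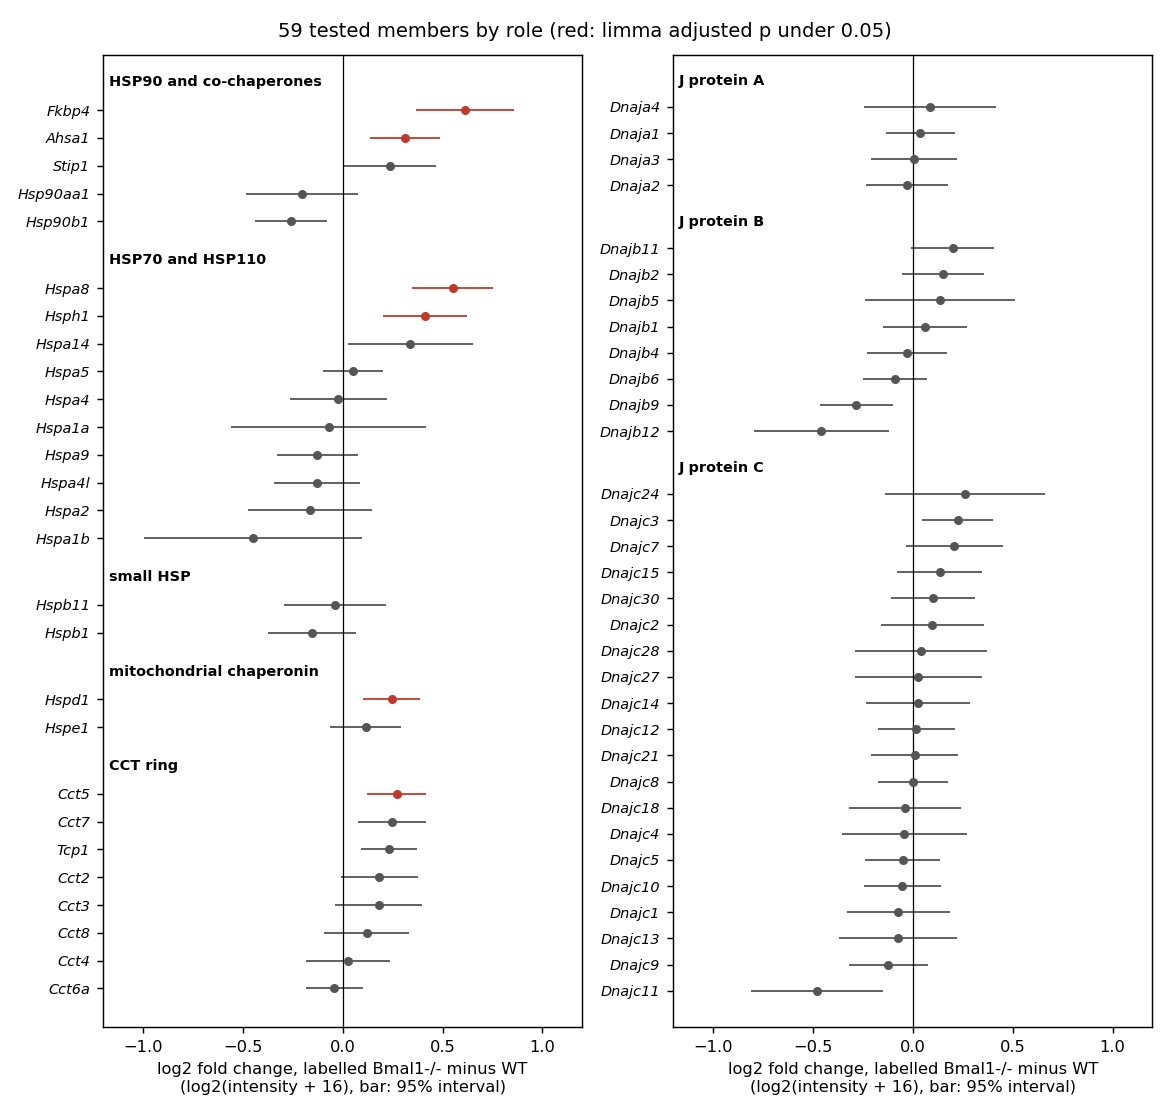
Log2 fold change (labelled Bmal1-/- minus WT, x axis, on the log2(intensity + 16) scale) of the 59 tested members by role, with 95% limma intervals over 3 arrays per genotype. The 6 red genes passed the threshold, all of them to the right of 0, and none of the 32 J protein genes is red.

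HSC70, encoded by Hspa8, is the abundant HSP70 of unstressed cells, and it uncoats clathrin vesicles besides folding new chains. Its brightest probe set read 3287.5, 3176.7 and 3730.5 on the arrays labelled Bmal1-/-, against 2074.5, 2678.2 and 2215.5 on WT arrays. All arrays labelled Bmal1-/- lay above all WT arrays, and WT replicate 2 came nearest to them. The log2 fold change was 0.55 (SE 0.09, limma adjusted p = 0.00564). A second bright probe set gave 2885.8, 2934.1 and 3272.4 in pools labelled Bmal1-/- against 2080.0, 2194.7 and 2109.9 in WT pools, a log2 fold change of 0.51 (adjusted p = 0.00124). The pair ends in _x_at, which marks probes that can also bind other transcripts, and Hspa8 has many processed pseudogenes. The other two Hspa8 probe sets did not pass. The one at 707.7, 624.1 and 667.9 in pools labelled Bmal1-/- against 975.8, 543.7 and 650.6 in WT pools had a log2 fold change of -0.07, with the WT values on both sides of the others. The dim one, at 34.3 to 60.3 in pools labelled Bmal1-/- against 49.8 to 69.6 in WT pools, had -0.24. With probe sets ending in _x_at or _s_at left out, Hspa8 therefore stood at -0.07, and with its probe sets averaged at 0.19 (adjusted p = 0.153).

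Hsph1, the HSP110 that acts as nucleotide exchange factor for HSP70, rose on both of its probe sets. The brighter read 764.5, 681.8 and 847.7 on the arrays labelled Bmal1-/-, against 632.5, 552.7 and 526.2 on WT arrays, without overlap. Its log2 fold change was 0.41 (SE 0.10, limma adjusted p = 0.0299). The other read 388.9, 421.6 and 429.5 in pools labelled Bmal1-/- against 351.2, 321.7 and 298.1 in WT pools (0.34, adjusted p = 0.0460). Leaving out 1 array ended the call in 4 of 6 cases, those of replicates 4 and 6 labelled Bmal1-/- and of WT replicates 2 and 3 (highest adjusted p = 0.114, without WT replicate 3).

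The other HSP70 family genes did not pass. Hspa5, the endoplasmic reticulum chaperone BiP and the brightest member of all, read 3661.5, 3829.3 and 3722.1 on the arrays labelled Bmal1-/-, against 3847.8, 3704.0 and 3279.1 on WT arrays. Its log2 fold change was 0.05 with a 95% interval of -0.10 to 0.20. Hspa14, a ribosome-associated HSP70, read 83.7, 124.3 and 93.6 in pools labelled Bmal1-/- against 76.1, 67.0 and 83.0 in WT pools, apart by less than 1 intensity unit at the nearest (0.34, 95% interval 0.02 to 0.65, not past the threshold). Hspa9 (mitochondrial mortalin), Hspa4 and Hspa4l (relatives of HSP110) and Hspa2 lay between -0.16 and -0.02 on the log2 fold change scale at their brightest probe sets. The dimmest Hspa4 probe set read 75.8 to 116.2 in pools labelled Bmal1-/- against 33.8 to 68.5 in WT pools. It stood at 0.63 and did not pass (limma adjusted p = 0.088), and the middle one was at 0.03.

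The stress-inducible pair Hspa1a and Hspa1b did not pass. They are near-identical neighbours on chromosome 17 (chr17:34969359-34972156 and chr17:34956429-34959238), so their probes may not separate them. Hspa1b read 81.5, 72.6 and 94.9 on the arrays labelled Bmal1-/-, against 191.8, 66.9 and 126.0 on WT arrays. Hspa1a read 48.9, 51.3 and 54.3 in pools labelled Bmal1-/- against 81.4, 30.0 and 63.4 in WT pools. At the brightest probe set of both genes WT replicate 1 was the highest array, WT replicate 3 the next and WT replicate 2 the lowest. The arrays labelled Bmal1-/- lay in between. At the other Hspa1b probe sets WT replicate 1 was again the highest array, but replicate 5 labelled Bmal1-/- was the lowest. The log2 fold changes at the brightest probe sets were -0.45 (95% interval -0.996 to 0.095) for Hspa1b and -0.07 (-0.56 to 0.42) for Hspa1a. The other Hspa1b probe sets stood at -0.26 and -0.21 and did not pass. Leaving out WT replicate 2 gave the brightest Hspa1b probe set a log2 fold change of -0.80 and a call (adjusted p = 0.0187).

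These were also the members with the widest spread within a genotype. The highest WT array exceeded the lowest 2.87 times for Hspa1b and 2.71 times for Hspa1a, where the median over the 59 members was 1.17 times. On the arrays labelled Bmal1-/- the same ratios were 1.31 and 1.11, below those in WT. These ratios are of the brightest probe sets. At the other Hspa1b probe sets the pools labelled Bmal1-/- spread more widely than at the brightest, at 60.3 to 106.0 and 46.0 to 85.7. The WT pools spanned 84.4 to 148.3 and 48.7 to 130.5 there. In some other genes known to respond to heat, picked after their values were seen, WT replicate 1 was also the highest WT array. Hsp90aa1 spread 1.57 times in WT, Hspb1, the small heat shock protein HSP27, read 694.3, 539.2 and 534.2 there, and Dnajb1, the J protein partner of HSPA1A, read 373.2, 300.2 and 362.7, with 373.9 on replicate 6 labelled Bmal1-/-. In Hspd1, and in the HSP70 co-chaperone gene Bag3 with 142.6, 148.7 and 156.7, WT replicate 1 was instead the lowest WT array. The difference in spread between the genotypes was not tested.

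**Figure D2:**
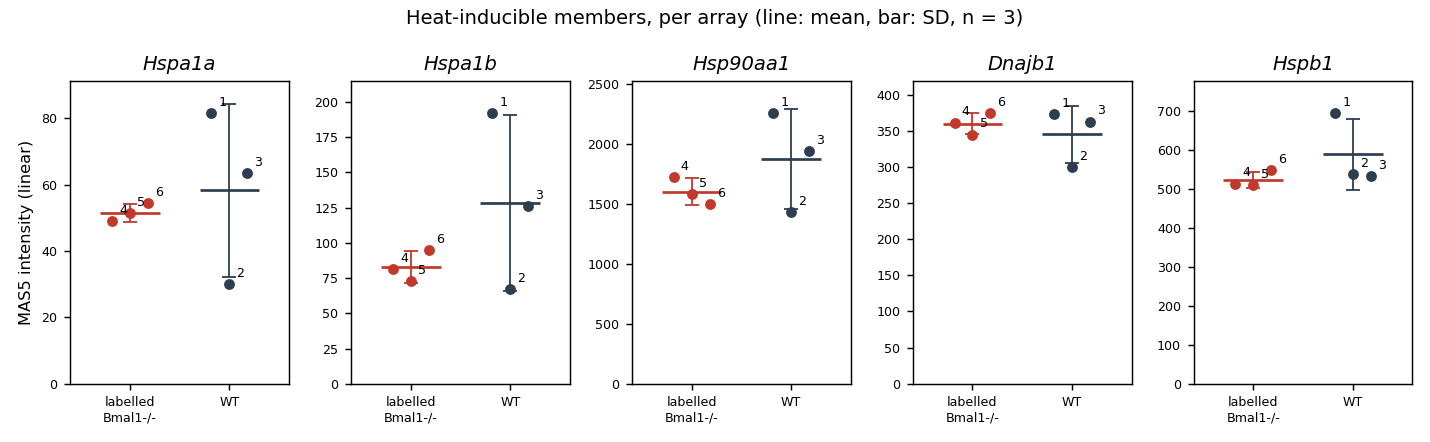
MAS5 intensity (linear, y axis from 0) of 5 heat-inducible members, picked after their values were seen, on each array, with array numbers, means and SDs (n = 3 per genotype). Each gene is read from its brightest probe set. WT replicate 1 is the highest array in Hspa1a, Hspa1b, Hsp90aa1 and Hspb1, and the WT points span a wider range than those labelled Bmal1-/- in all 5 panels.

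Of the 5 members that encode HSP90 or its co-chaperones, 2 rose (40%, with 3.00% of all genes). Fkbp4 encodes the immunophilin FKBP52, a partner of HSP90 in complexes with the glucocorticoid and other steroid receptors. Fkbp4 rose most among all tested members, each read from its brightest probe set. It read 247.4, 261.1 and 248.1 on the arrays labelled Bmal1-/-, against 190.5, 140.0 and 152.0 on WT arrays. The groups did not overlap, and the log2 fold change was 0.61 (SE 0.11, limma adjusted p = 0.00920). A second, dim probe set at 9.7 to 20.1 in pools labelled Bmal1-/- against 12.2 to 20.4 in WT pools was not tested, and averaging it in ended the call (0.29, adjusted p = 0.153). The call held in 6 of 6 fits that left out 1 array, as did that of Hspa8, and no other of the 6 risen genes shared this.

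Ahsa1, the activator of the HSP90 ATPase, rose to 380.0, 367.9 and 393.8 on the arrays labelled Bmal1-/-, against 314.1, 304.5 and 292.1 on WT arrays. Every labelled Bmal1-/- value lay above every WT value (0.31, SE 0.08, limma adjusted p = 0.0456). The call ended without any 1 of the 6 arrays, with a highest adjusted p of 0.141. Stip1, the HSP70-HSP90 organising protein HOP, had a log2 fold change of 0.24 and did not pass (adjusted p = 0.218), although its 164.3, 176.5 and 195.9 in pools labelled Bmal1-/- lay above the WT values of 154.1, 156.4 and 136.9.

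The HSP90 genes among the members, Hsp90aa1 and Hsp90b1, did not pass at their brightest probe sets. Hsp90ab1, the gene of HSP90 beta, is not among the members, so it was not read. Hsp90aa1, the inducible cytosolic HSP90 alpha, read 1725.9, 1580.3 and 1499.0 on the arrays labelled Bmal1-/-, against 2253.8, 1432.5 and 1940.8 on WT arrays. WT replicate 2 was the lowest array of all and WT replicate 1 the highest, giving -0.20 (95% interval -0.48 to 0.08). Its other probe sets pointed the other way. The dimmest read 917.8, 867.2 and 900.8 in pools labelled Bmal1-/- against 766.0, 698.3 and 696.0 in WT pools and passed (0.31, limma adjusted p = 0.0298), and the middle one stood at 0.19. Without WT replicate 2 the brightest probe set was called lower (-0.38, adjusted p = 0.0223), so the direction for Hsp90aa1 depends on the probe set read. Hsp90b1, the endoplasmic reticulum HSP90 known as GRP94, read 1255.6, 1288.9 and 1193.3 in pools labelled Bmal1-/- against 1629.6, 1318.6 and 1550.9 in WT pools. These groups did not overlap, and the log2 fold change of -0.26 missed the threshold (adjusted p = 0.0895), passing without WT replicate 2 (-0.35, adjusted p = 0.0159). Its second probe set was at 0.10.

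**Figure D3:**
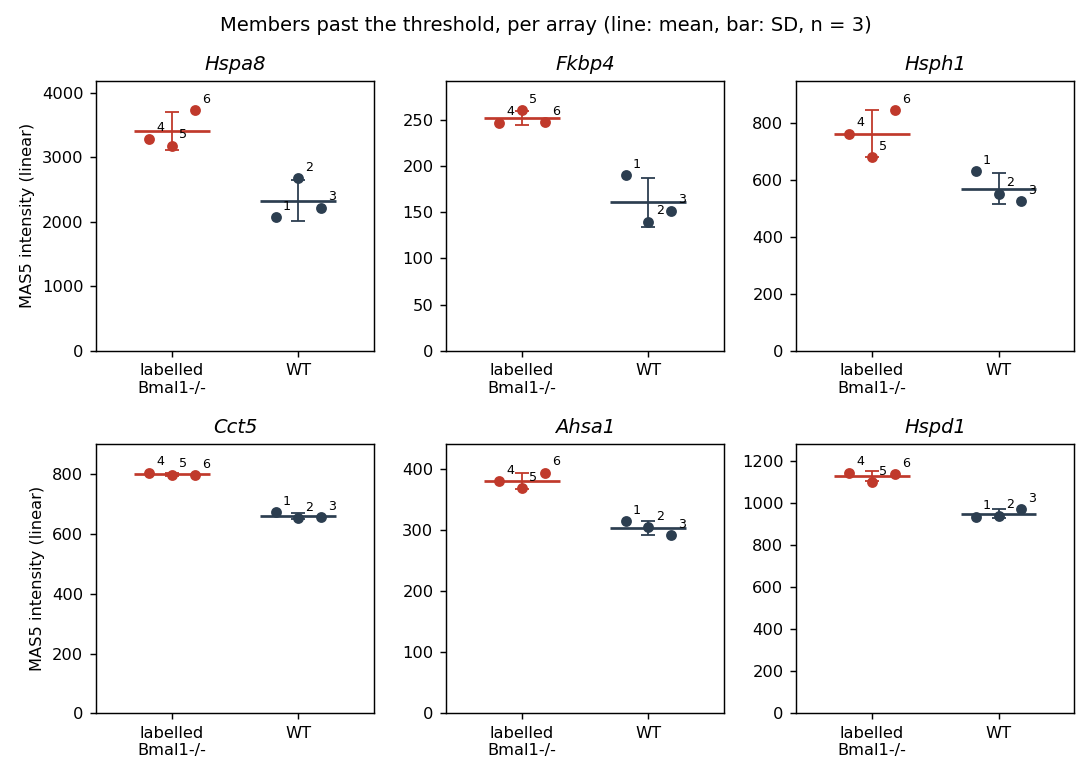
MAS5 intensity (linear, y axis from 0) per array of the 6 members that rose, arrays labelled Bmal1-/- on the left and WT on the right, with means and SDs (n = 3). In each panel all labelled Bmal1-/- points lie above all WT points, by the widest margin relative to the level in Fkbp4 and the narrowest in Hsph1.

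The CCT ring is built from related subunits that stand side by side, and 7 of its 8 tested subunit genes had log2 fold changes above 0. Over all genes tested, 4011 of 8033 did. The median over the ring was 0.18, beside -0.0003 over all genes. Both read each gene from its brightest probe set, and other probe sets of several subunits lay below 0. Cct5, the epsilon subunit, rose to 805.3, 798.9 and 795.7 on the arrays labelled Bmal1-/-, against 672.8, 652.8 and 656.1 on WT arrays. Its replicates lay very close together, and the log2 fold change was 0.27 (SE 0.07, limma adjusted p = 0.0390). Tcp1, the alpha subunit, was equally tight at 1052.3, 1037.8 and 1063.6 in pools labelled Bmal1-/- against 906.2, 879.3 and 891.6 in WT pools. At 0.23 it just missed the threshold (adjusted p = 0.0576), and it passed when the top 40% of probe sets were tested (0.0484) or probe sets averaged (0.0449). Cct7, the eta subunit, read 863.5, 775.4 and 799.2 in pools labelled Bmal1-/- against 733.8, 658.1 and 653.1 in WT pools, also without overlap, and did not pass (0.25, adjusted p = 0.0855). Its dimmer probe set overlapped between the genotypes, at -0.01. The Cct5 call ended without any 1 of the 6 arrays (highest adjusted p = 0.124).

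The remaining CCT subunits overlapped between the genotypes. Cct2, Cct3, Cct8 and Cct4 had log2 fold changes of 0.18, 0.18, 0.12 and 0.03. The dimmer tested probe sets of Cct4 lay at -0.19, -0.03, -0.28 and -0.26, and those of Cct2 at 0.22 and -0.20. Cct6a, a zeta subunit, read 1013.5, 978.3 and 1037.3 on the arrays labelled Bmal1-/-, against 1012.3, 1049.2 and 1056.1 on WT arrays (-0.04). Its second probe set fell, at 795.3, 563.1 and 610.6 in pools labelled Bmal1-/- against 936.8, 890.2 and 858.8 in WT pools (-0.45, limma adjusted p = 0.0336). One of the dimmer Cct3 probe sets rose (0.34, adjusted p = 0.0462) while 2 others lay at -0.0014 and -0.03 and the dimmest tested one at -0.69, so the subunits cannot be ordered from single probe sets. Cct6b, a zeta subunit best known from testis, was too dim to be tested, at 1.2, 1.0 and 0.8 in pools labelled Bmal1-/- against 11.2, 13.6 and 10.3 in WT pools. With no filter on low values it was the single member called lower (-0.70, adjusted p = 0.0271), at a level below that filter.

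The mitochondrial chaperonin genes share the promoter region shown above. Hspd1, which encodes HSP60, rose to 1146.8, 1102.5 and 1141.5 on the arrays labelled Bmal1-/-, against 937.6, 941.7 and 974.8 on WT arrays. The groups stood clear of each other, yet the change was small (0.24, SE 0.07) and only just past the threshold (limma adjusted p = 0.0491). Leaving out any 1 array ended the call (highest adjusted p = 0.140). Hspe1, the HSP10 lid, read 495.3, 535.1 and 525.5 in pools labelled Bmal1-/- against 501.7, 495.9 and 437.4 in WT pools, with overlap, and did not pass (0.11, 95% interval -0.06 to 0.29). Its dim second probe set stood at 0.44 (adjusted p = 0.176). The interval for Hspe1 holds the value of Hspd1, and the difference between the genes was not tested.

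Small heat shock proteins, ATP-independent holdases, were mostly near background. Of 6 genes 2 were tested and 0 passed in limma (5.66% of all genes did), with 0 at an unadjusted p under 0.05 (21.5% of all genes). Hspb1 read 514.2, 510.3 and 548.0 on the arrays labelled Bmal1-/-, against the WT values given above (-0.15, adjusted p = 0.414). Hspb11, an intraflagellar transport protein, read 79.2, 75.5 and 85.5 in pools labelled Bmal1-/- against 89.4, 79.4 and 79.3 in WT pools (-0.04). The muscle-associated Hspb2, Hspb3 and Hspb7 and the autophagy factor Hspb8 had means of 17.0 or lower over all arrays.

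J proteins were the largest class, with 38 genes of which 32 were tested, and 0 passed in limma, with 4 at an unadjusted p under 0.05 (12.5%, with 21.5% of all genes). Their median log2 fold change was 0.01, with 19 above 0 and 13 below. Among class A proteins, the closest relatives of bacterial DnaJ, Dnaja1 read 802.7, 785.2 and 918.0 on the arrays labelled Bmal1-/-, against 829.4, 773.3 and 831.9 on WT arrays (0.04, 95% interval -0.13 to 0.21). Mitochondrial Dnaja3 read 187.9, 190.6 and 209.4 in pools labelled Bmal1-/- against 192.6, 212.2 and 181.6 in WT pools (0.00, interval -0.21 to 0.22), while a dimmer probe set of it was at -0.44 and did not pass (adjusted p = 0.0827). Both brightest readings overlapped between the genotypes throughout.

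In class B, Dnajb9, the BiP cofactor ERdj4 that is induced by the unfolded protein response, was the brightest. It read 1482.8, 1320.7 and 1177.0 on the arrays labelled Bmal1-/-, against 1682.3, 1550.8 and 1601.3 on WT arrays, without overlap. The log2 fold change of -0.28 did not pass (adjusted p = 0.0710), except without replicate 4 of the arrays labelled Bmal1-/- (-0.37, adjusted p = 0.0404). Dnajb6, which keeps polyglutamine proteins from aggregating, read 748.5, 803.5 and 768.2 in pools labelled Bmal1-/- against 878.5, 780.9 and 813.6 in WT pools (-0.09) and overlapped. Its window holds the 3-unit element printed above. Dnajb1, a classic HSF1 target, stood at 0.06 (interval -0.15 to 0.27). Dnajb12, an endoplasmic reticulum membrane J protein, had the most negative value of the class at -0.46 with overlap (adjusted p = 0.109).

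In class C, the J proteins outside those classes, Dnajc8, a splicing-associated protein, read 518.5, 480.2 and 495.6 on the arrays labelled Bmal1-/-, against 462.6, 507.2 and 523.7 on WT arrays (0.00). Dnajc3, the endoplasmic reticulum co-chaperone P58IPK that restrains the kinase PERK, read 444.2, 459.4 and 455.8 in pools labelled Bmal1-/- against 401.5, 401.6 and 355.4 in WT pools. It did not overlap, at 0.22, and did not pass (adjusted p = 0.135), and its dimmest probe set was at -0.49. Dnajc11, of the mitochondrial inner membrane organising system, read 27.5, 28.9 and 38.0 in pools labelled Bmal1-/- against 42.2, 53.3 and 55.0 in WT pools. Its log2 fold change of -0.48 did not pass (adjusted p = 0.0864), and its second probe set was at -0.22. Dnajc5, the cysteine string protein of secretory vesicles, stood at -0.05, and Dnajc7, which binds both HSP70 and HSP90, at 0.21 with overlap.

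Probe sets of the same gene often differed in direction. Of 34 members with more than 1 tested probe set, 21 had log2 fold changes on both sides of 0. Over all 116 tested probe sets of the members, 10 were called higher, from 8 genes, and 1 lower, that of Cct6a, where 5.54% of all tested probe sets were called in either direction. The 8 genes are the 6 above with Hsp90aa1 and Cct3. Where a gene has 1 probe set, as Cct5, Tcp1, Ahsa1, Stip1 and Hspd1 do, this check could not be made.

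**Figure D4:**
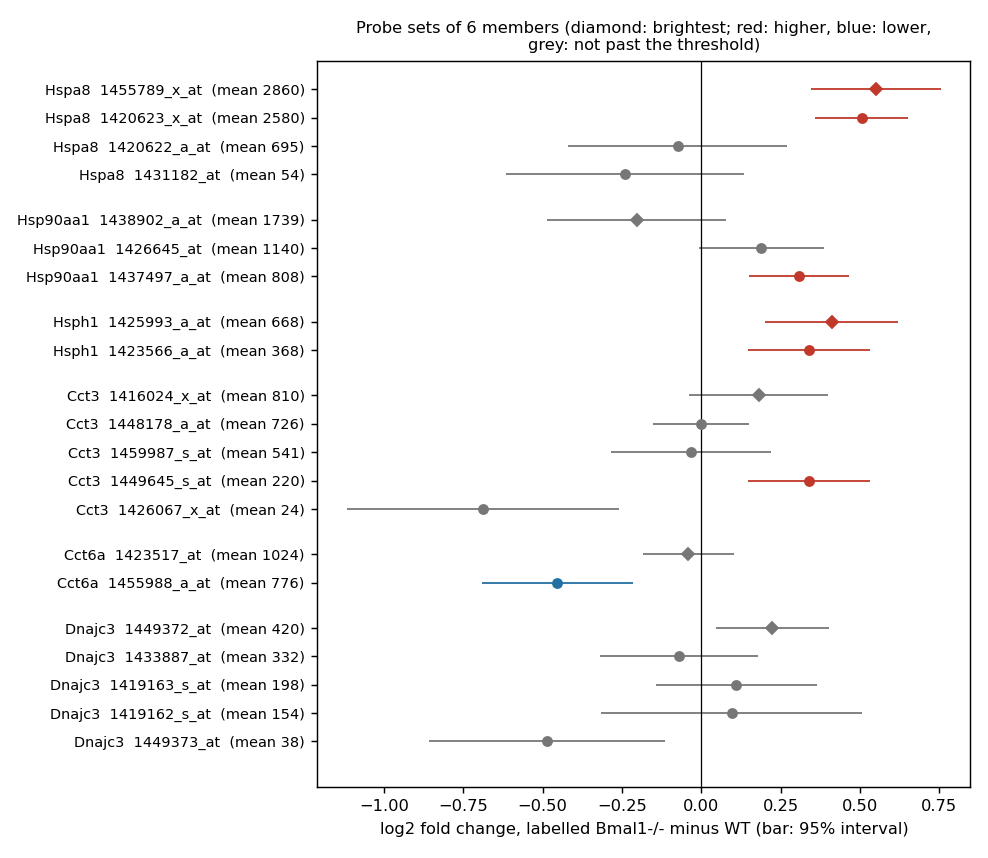
Log2 fold change (labelled Bmal1-/- minus WT, x axis) with 95% limma intervals for each tested probe set of 6 members, ordered by brightness within a gene. The Hsph1 pair agree in direction, the Hspa8 pair of bright probe sets lies near 0.5 and its dimmer pair below 0, and Hsp90aa1, Cct3 and Dnajc3 have points on both sides.

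Partners outside the families were read from a list of 58 further co-chaperones, prefoldins, mitochondrial proteases and heat shock factors, of which 51 were measured and 48 tested. The number that passed was 3, with 1 higher (2.08%, with 3.00% of all genes) and 2 lower (4.17%, with 2.66% of all genes). Tomm34, a cytosolic co-chaperone of HSP70 and HSP90 in mitochondrial import, rose to 346.0, 349.8 and 351.6 on the arrays labelled Bmal1-/-, against 276.4, 286.5 and 277.0 on WT arrays (0.30, limma adjusted p = 0.0476). Bag2, a nucleotide exchange factor of HSP70 that restrains the ubiquitin ligase CHIP, averaged 277 ± 23.8 on the arrays labelled Bmal1-/- and 379 ± 44.1 on WT arrays (SD, n = 3 each), and fell (-0.43, adjusted p = 0.0336). Fkbp5, the relative of FKBP4 that lowers glucocorticoid receptor affinity and is itself induced by the receptor, fell to 277.2, 218.0 and 343.9 on the arrays labelled Bmal1-/-, against 465.2, 500.9 and 447.7 on WT arrays (-0.74, adjusted p = 0.00707). In all 3 genes the genotypes stood apart. With 1 array left out the number that passed was 2 without WT replicate 2 and 1 without any other.

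FKBP4 and FKBP5 compete for the same site on HSP90, and their transcripts moved in opposite directions, at 0.61 and -0.74 on the log2 fold change scale. The next genes by p were the proteasome escort Bag6 (0.37, limma adjusted p = 0.0613), the HSP90 partner Nudc (0.24, 0.0860) and the phosducin-like Pdcl (0.33, 0.0991), each without overlap and none past the threshold. The list median was 0.11, with 33 of 48 values above 0, beside -0.0003 over all genes. Non-overlapping values lay upward at 13 genes (27.1%, with 13.7% of all genes) and downward at 4 (8.33%, with 12.7% of all genes). Of the heat shock factor genes on the list, Hsf1 was not measured, and Hsf2 and Hsf4 were too dim to be tested. Cirbp, a cold-inducible RNA-binding gene that falls with warmth, read 237.5, 203.2 and 162.7 in pools labelled Bmal1-/- against 274.8, 237.1 and 274.6 in WT pools and did not pass (-0.37, adjusted p = 0.110).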

How the data were processed

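Total RNA of 6 pools of pituitary glands was labelled with biotin, from 1 ug each, and hybridised to 1 Affymetrix mouse array per pool, per the labels' protocols. The authors deposited linear intensities, 1 for each probe set on each array, made with MAS5, per the submitters' processing notes. All 6 arrays had the same mean, 100.04, once 2% of values were trimmed at either end. MAS5 subtracts a mismatch background, so low values are noisy. The labels name no MAS5 version, and no detection calls were used.

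Of 22690 probe sets, 64 controls were left out, and the platform annotation names 1 gene for 20380 of the rest, several for 691 and none for 1555. Genes were named from single-gene probe sets, and all 72 members' gene IDs were found in the RefSeq table (GRCm38.p6). Values were transformed as log2(intensity + 16), which understates the change of dim genes. The brightest 60% of probe sets by their 6-array mean entered the test (13576, down to an intensity of 17.3). Each gene was read from its probe set with the highest mean. Genotypes were compared with limma 3.58.1 in R 4.3.3 (lmFit, eBayes with an intensity trend, two-sided, Benjamini-Hochberg over all tested probe sets, threshold 0.05). Levels are intensities with each array's value, and differences are labelled Bmal1-/- minus WT. The median SE was 0.13.

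Members shown with all array values are those past the threshold, the 2 brightest of each role, Hspa1a and Hspa1b, and those apart between genotypes by at least 0.4 without passing. Others named, among them Cct7, Hspa14 and Stip1 with all array values, were chosen after their values were seen. The members and lists were chosen with earlier results of these data known. The procedure was tested on simulated data. The alternatives were 17 settings, given in the closing section. The pools are separate animals per the labels, which give no batch.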

Additional observations from a re-analysis of the deposited data

How the results depend on the processing

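With the other settings, the count of members called stayed within 1.5 times of 6 except after quantile normalization (3, all higher), with no filter on low values (3, of which 2 higher and 1 lower) and with eBayes run without the trend (1, higher, which was Fkbp4). Leaving out 1 array gave 2 to 5 members called, with 2 to 3 higher and 0 to 3 lower. Those fits rest on 5 arrays. The median of the members stayed between 0.0031 and 0.0541 in those fits. Of the further chaperone network, 3 genes were called, but 1 with no filter, 1 without the trend, 5 with probe sets of a gene averaged and 1 to 2 with 1 array left out. Over all tested probe sets, 752 were called, against 330 with no filter, 407 without the trend and 312 to 939 with 1 array left out. The causes were not tested.

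Several single genes changed sign. Averaging probe sets gave Hspa5 -0.03, Hsp90aa1 0.10, Dnaja3 -0.26, Dnajc3 -0.0254 and Hspb1 0.0021 on the log2 fold change scale. Without probe sets ending in _x_at or _s_at, Hspa8 was -0.0747. Quantile normalization gave Dnaja3 -0.0105 and Dnajc8 -0.0207, and array weights gave Dnajc8 -0.0033. Leaving out 1 array moved Hspa5 between -0.0146 and 0.100, Hspa1a between -0.382 and 0.159, Dnaja1 between -0.0303 and 0.0803, Dnaja3 between -0.0431 and 0.0607, Dnajc8 between -0.0484 and 0.0383, and Hspb11 between -0.0791 and 0.0095. The calls of Cct5 and Ahsa1 also ended after quantile normalization, with no filter and without the trend, as did that of Hspd1, which ended with a pseudocount of 1 too (adjusted p = 0.0507 in limma). The Hsph1 call ended with no filter and without the trend, and that of Hspa8 without the trend (adjusted p = 0.0570). No paired analysis was possible because the labels number the WT pools 1 to 3 and the others 4 to 6, so that no number is shared. Low signal limits the dim genes: the 13 untested members had means of 0.967 to 17.0, below the filter.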
